A study of Mus musculus with 10 samples.

Results

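The metabolic nuclear receptors of the hepatocyte are described here by the mRNA levels of 9 genes, which are Hnf4a, Nr5a2, Rora, Esrra, Nr1i2, Nr1i3, Nr1h3, Thrb and Ppard. They were chosen by gene symbol and are 9 of the 15126 protein-coding genes that the deposited expression table lists. The rule used no measured value, though the list was drawn up with earlier results of these data known. RNA-seq was read from 5 livers of db/db mice, which lack a working leptin receptor and are obese and diabetic, that received the vector AAV8, an adeno-associated virus of serotype 8, with eGFP as its cargo (AAV8-Control). The mice were 10 weeks old and were examined 5 weeks after infection through the tail vein, and the promoter that drives eGFP is not given in the sources used here. An uninfected liver and a lean liver are not part of the data, so the levels are those of an obese, diabetic liver that carries a vector. The labels name both liver and primary hepatocytes, and their growth and treatment notes describe cultured hepatocytes given adenovirus; the libraries are named livers here after the tissue label and the study's design.

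Nuclear receptors are transcription factors, many of which are switched by small lipophilic ligands, that bind short DNA half-sites alone, as homodimers or with a retinoid X receptor as partner. In the hepatocyte they tie gene expression to nutrients, hormones, bile acids and foreign chemicals. Their activity depends on ligands, coactivators and corepressors as well as on the amount of receptor, and mRNA levels show only the last of these.

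The 5 libraries held 19499795 to 35498596 reads counted on genes, with a median of 20769191. Levels are in CPM, a gene's reads scaled to the total of reads counted on all genes of the library. The 10 hepatocyte markers summed to 106446 to 141403 CPM, and none of them was at 0. Other cell types were also present, with 9 Kupffer cell markers at 168 to 344 CPM, 8 sinusoidal endothelial markers at 136 to 261 CPM, 9 stellate cell markers at 294 to 394 CPM and 6 cholangiocyte markers at 33.7 to 54.2 CPM. The 7 lymphocyte markers listed summed to 0.789 to 3.47 CPM. In whole liver RNA, fewer cells of a type and less RNA per cell cannot be told apart. Nothing in the labels says that the libraries came from separate animals, so every n of livers counts libraries. Each SD measures the spread between these libraries, which may be technical.

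The receptors differed widely in level. Per kilobase of the longest annotated transcript, Hnf4a was the highest at 142 ± 15.4 CPM (SD, n = 5 livers), followed by Nr1h3 at 57.1 ± 3.77, Nr1i3 at 43.9 ± 10.5 and Nr1i2 at 27.6 ± 1.37 CPM per kilobase. Esrra was at 10.4 ± 0.676, Nr5a2 at 7.93 ± 0.750, Rora at 5.88 ± 0.392, Thrb at 4.92 ± 0.540 and Ppard at 2.06 ± 0.317 CPM per kilobase. The mean level of Hnf4a per kilobase was 2.48 times that of Nr1h3 and 68.9 times that of Ppard. The ranges of 2 of the 8 neighbouring pairs overlapped, those of Nr1h3 with Nr1i3 and of Rora with Thrb, and for the other 6 pairs every liver had more of the receptor ranked higher. With the length of all exons joined in place of the longest transcript, Nr5a2 came before Esrra at 6.37 ± 0.602 against 5.89 ± 0.383 CPM per kilobase, with overlapping ranges. Nr1i3 then also overlapped with Nr1i2, and the other 7 ranks were the same.

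**Figure D1:**
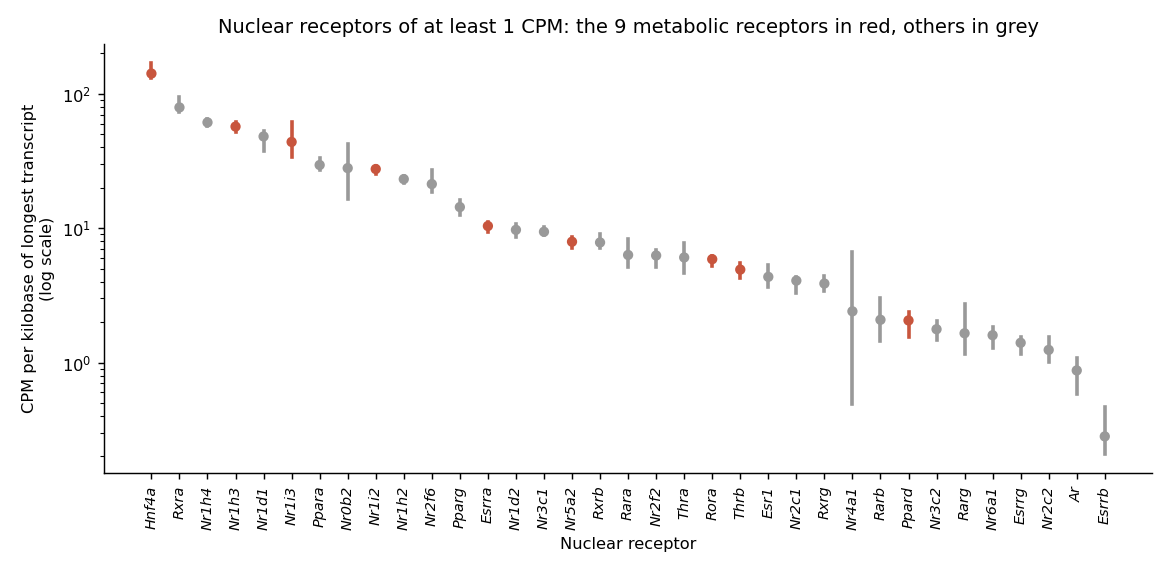
Level of nuclear receptor genes that averaged 1 CPM or more, in CPM per kilobase of its longest transcript on a log axis, ordered by mean, with a dot at the mean and a line over the range of the 5 AAV8-Control livers. The 9 metabolic receptors are red, with Hnf4a first at 142 and Ppard toward the low end at 2.06 CPM per kilobase, and 26 other receptors are grey.

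Hnf4a, Nr5a2, Rora and Esrra act without a classical hormone in liver and set the basal expression of metabolic genes. The first, hepatocyte nuclear factor 4 alpha (Hnf4a), is a master regulator of hepatocyte identity, and lies on chromosome 2 of GRCm38 from 163506808 to 163572910 on the forward strand. In AAV8-Control replicates 1 to 5 it was at 735, 573, 608, 603 and 573 CPM, from 11860 to 21580 reads per library. Replicate 1 stood above the other 4 livers, which were within 573 to 608 CPM. The mean was 618 ± 67.1 CPM (SD, n = 5 livers) and the coefficient of variation, the SD as a percent of the mean, was 10.9%, where counting reads alone gives 0.810%, and 3.18% without replicate 1. After scaling by TMM factors, which adjust for library composition and were highest in replicate 1, the livers were at 699, 583, 612, 619 and 573 CPM, with replicate 1 still the highest.

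Liver receptor homolog 1 (Nr5a2), a regulator of bile acid synthesis and of hepatic glucose sensing, lies on chromosome 1 from 136842571 to 136960448 on the reverse strand. It was at 39.6, 33.7, 33.7, 40.7 and 40.0 CPM, with a mean of 37.5 ± 3.55 CPM and a coefficient of variation of 9.45%. Replicates 2 and 3 were the low livers, and the other 3 lay close together.

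Retinoic acid receptor-related orphan receptor alpha (Rora), which links the circadian clock to lipid and glucose metabolism, lies on chromosome 9 from 68653786 to 69388246 on the forward strand. It was at 68.1, 63.6, 67.2, 63.8 and 57.2 CPM, with replicate 5 the lowest. The coefficient of variation was 6.67%, and 3.52% without replicate 5. The mean was 64.0 ± 4.27 CPM, close to that of Nr1i2, but its longer transcript places it lower per kilobase.

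Estrogen-related receptor alpha (Esrra), an orphan receptor that acts with the coactivator PGC-1alpha on genes of mitochondrial oxidation, lies on chromosome 19 from 6910977 to 6921813 on the reverse strand. It was at 27.8, 26.1, 26.9, 23.5 and 24.9 CPM, with a mean of 25.9 ± 1.68 CPM. The highest liver had 1.18 times the level of the lowest.

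**Figure D2:**
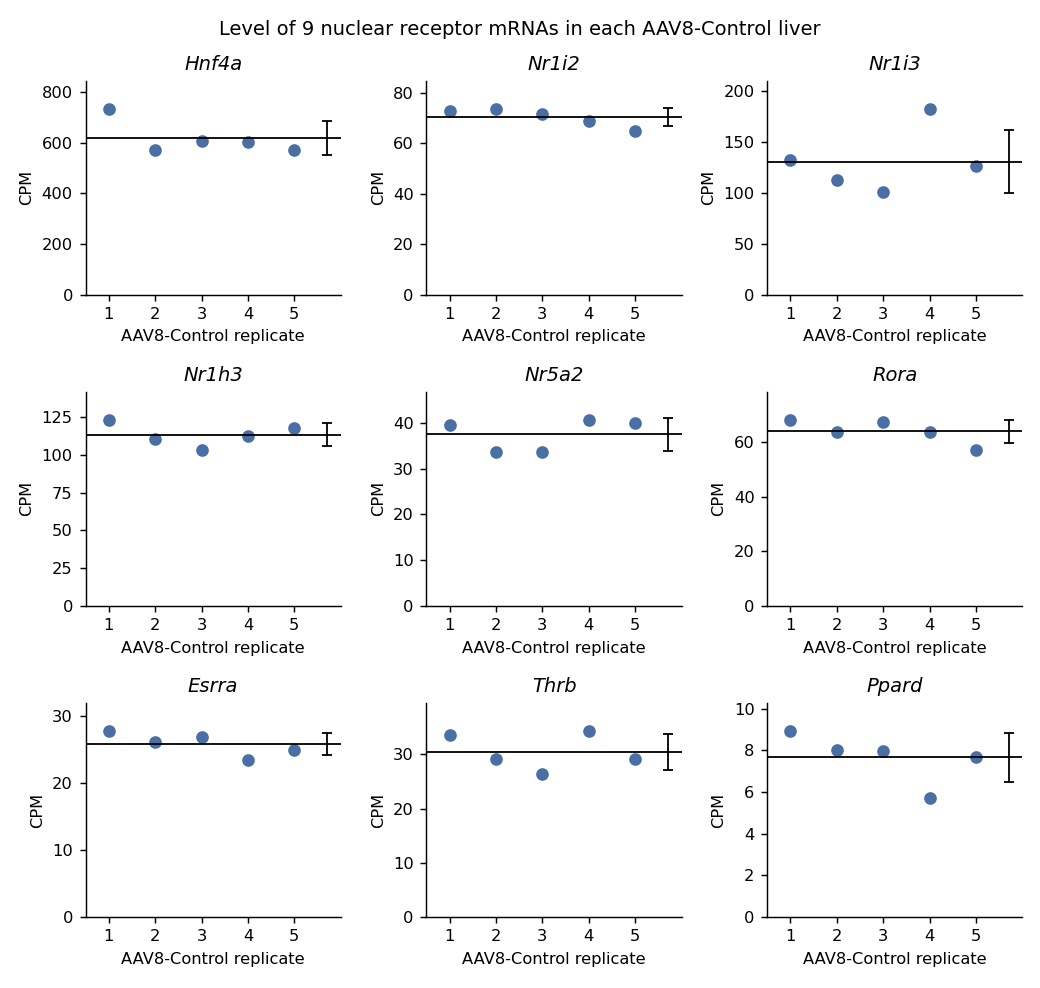
CPM of each receptor in each of the 5 AAV8-Control livers, by replicate number, with the mean as a horizontal line and the mean ± SD as a bar at the right; every axis starts at 0. Hnf4a is highest in replicate 1 at 735 CPM and Nr1i3 in replicate 4 at 183 CPM, while Nr1i2 stays within 65.0 to 73.6 CPM.

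The xenobiotic sensors differed in their spread between livers. The pregnane X receptor (Nr1i2), which induces drug-metabolising enzymes in answer to foreign chemicals and steroids, lies on chromosome 16 from 38248323 to 38294824 on the reverse strand. It was at 72.8, 73.6, 71.8, 69.0 and 65.0 CPM, with a mean of 70.4 ± 3.50 CPM. Its coefficient of variation of 4.97% was the smallest of the 9 receptors in CPM as deposited, but after TMM scaling it was 5.24%, above Esrra at 4.79% and Nr1h3 at 4.91%. In CPM as deposited, 14.8% of the 8547 genes at a mean of 5 CPM or more had a smaller SD on log2(CPM + 1). These genes were not matched for level, and counting error is larger for genes with fewer reads. Without replicate 5 the coefficient of variation of Nr1i2 was 2.82%.

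The constitutive androstane receptor (Nr1i3), the partner sensor that induces Cyp2b enzymes, lies on chromosome 1 from 171213970 to 171220701 on the forward strand and had the largest spread over the 5 livers. It was at 132, 113, 101, 183 and 126 CPM, so that the highest liver, replicate 4, had 1.82 times the level of the lowest, replicate 3. The mean was 131 ± 31.4 CPM with a coefficient of variation of 24.0%, against 1.76% from counting reads, and 94.5% of the same 8547 genes had a smaller SD on the log2 scale. Replicate 4 decided this value: without it the coefficient of variation was 12.0%, below that of Hnf4a over the same 4 livers, 12.3%.

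The remaining 3 receptors answer to lipids or hormones. Liver X receptor alpha (Nr1h3), the oxysterol sensor that induces lipogenesis and cholesterol efflux, lies on chromosome 2 from 91184061 to 91202834 on the reverse strand. It was at 123, 110, 103, 112 and 118 CPM, with a mean of 113 ± 7.48 CPM. No liver stood apart, and the coefficient of variation was 6.59%.

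Thyroid hormone receptor beta (Thrb), the main thyroid hormone receptor of the liver, lies on chromosome 14 from 17660261 to 18038090 on the forward strand. It was at 33.6, 29.1, 26.4, 34.3 and 29.1 CPM, with replicates 1 and 4 high and replicate 3 low. The mean was 30.5 ± 3.35 CPM with a coefficient of variation of 10.99%.

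Peroxisome proliferator-activated receptor delta (Ppard), a fatty acid sensor with a wide tissue distribution, lies on chromosome 17 from 28232700 to 28301474 on the forward strand. It was at 8.92, 8.04, 7.97, 5.72 and 7.68 CPM, which rested on 157 to 283 reads per library, the fewest of the 9 receptors. Replicate 4 was the lowest, the mean was 7.67 ± 1.18 CPM, and the coefficient of variation was 15.4% where counting reads alone gives 7.29%. Without replicate 4 it was 6.56%, below the 7.15% that counting gives for those 4 libraries.

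**Figure D3:**
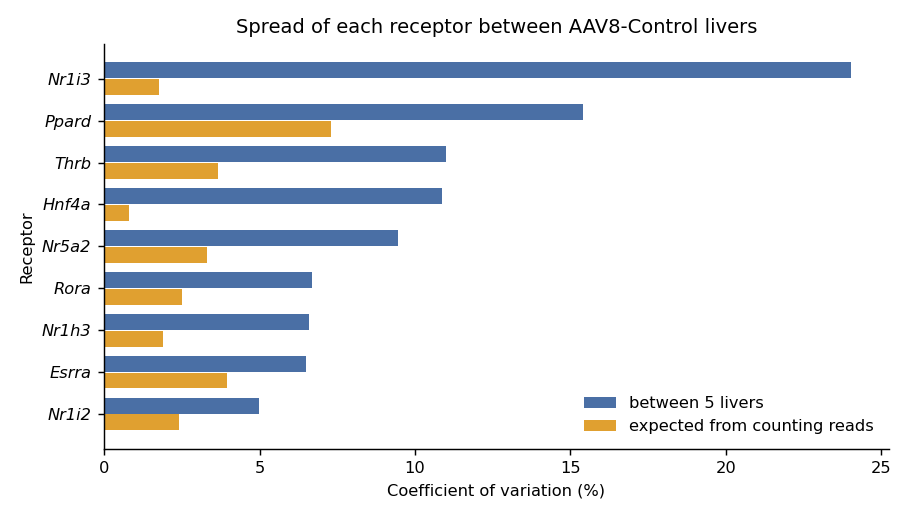
Coefficient of variation in percent of each receptor's deposited CPM over the 5 AAV8-Control livers in blue, beside the value expected from counting reads in yellow. The spread between livers runs from 4.97% for Nr1i2 to 24.0% for Nr1i3, and counting error from 0.810% for Hnf4a to 7.29% for Ppard.

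Some receptors shared their high and low livers and others did not. In CPM as deposited, replicate 1 was the highest for Hnf4a, Nr1h3, Rora, Esrra and Ppard, and replicate 4 for Nr1i3, Nr5a2 and Thrb. Replicate 3 was the lowest for Nr1i3, Nr1h3, Nr5a2 and Thrb, so that Nr1i3, Nr5a2 and Thrb shared both their highest and their lowest liver. Some of these ranks rest on small gaps. Nr5a2 was at 33.66 CPM in replicate 3 against 33.70 in replicate 2, and at 40.7 in replicate 4 against 40.0 in replicate 5. Thrb was at 34.3 CPM in replicate 4 against 33.6 in replicate 1. Counting reads alone gives a coefficient of variation of 3.29% for Nr5a2 and 3.66% for Thrb. The share of all genes with the same highest and lowest liver was not computed. Replicate 4 was the lowest for Esrra and Ppard. TMM factors were 0.973 to 1.052, highest in replicate 1 and lowest in replicate 4. After scaling by them, replicate 1 was the highest for Hnf4a and Ppard, but no longer for Nr1h3 (117.04 CPM against 117.7 in replicate 5), Rora (64.7 against 67.7 in replicate 3) or Esrra (26.4 against 27.1 in replicate 3). The other 6 receptors kept their highest liver, and each of the receptors named as lowest in replicate 3 or 4 was still lowest there. The coefficients of variation then ran from 4.79% for Esrra to 25.3% for Nr1i3.

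The bases before the RefSeq starts of Nr5a2 and Thrb are printed because these were the receptors with the letters AGGTCA, the half-site to which many nuclear receptors bind, in the 250 bases before a start. AGGTCA was searched on both strands. RefSeq gives 13 such windows for the 9 receptors, of which those of Nr1h3 overlap each other, and 2 of them (15.4%) held the half-site, against 14.0% of the windows of all 32851 promoters. It lies at bases 64 to 59 before the start of Nr5a2, at chr1:136960449-136960698 on the reverse strand, and at bases 184 to 179 before that of Thrb, at chr14:17660710-17660959 on the forward strand (GRCm38.p6). Capitals mark AGGTCA, and in Thrb also GGGCGG, the GC box, of which 2 copies overlap.

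Nr5a2: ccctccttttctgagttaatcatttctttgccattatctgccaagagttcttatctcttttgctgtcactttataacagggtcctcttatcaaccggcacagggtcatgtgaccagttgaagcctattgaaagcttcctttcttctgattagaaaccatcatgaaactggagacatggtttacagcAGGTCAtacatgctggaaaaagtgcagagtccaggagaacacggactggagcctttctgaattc

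Thrb: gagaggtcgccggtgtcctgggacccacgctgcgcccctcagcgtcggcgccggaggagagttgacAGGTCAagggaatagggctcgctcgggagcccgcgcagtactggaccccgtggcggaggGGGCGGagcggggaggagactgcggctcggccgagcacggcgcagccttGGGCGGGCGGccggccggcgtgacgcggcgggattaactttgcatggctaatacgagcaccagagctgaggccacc

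Each of these genes has a further RefSeq start whose window held no AGGTCA, and which start was used in these livers was not measured. The windows differ in base composition, at 43.2% G and C for Nr5a2 and 71.6% for Thrb. GGGCGG was in 4 of the 13 windows (30.8%, against 32.7% of all promoters) and CCAAT in 5 (38.5%, against 33.8%), each searched on both strands. Hnf4a and Ppard, the receptors with the highest and the lowest level per kilobase, each held both in 1 window. That of Hnf4a is at chr2:163506607-163506856 on the forward strand, with the GC box at bases 44 to 39 and CCAAT on the opposite strand, read as ATTGG, at bases 192 to 188 before the start. Both are in capitals, and the window is shown as an example of the pair, whose share over all promoters was not counted.

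Hnf4a: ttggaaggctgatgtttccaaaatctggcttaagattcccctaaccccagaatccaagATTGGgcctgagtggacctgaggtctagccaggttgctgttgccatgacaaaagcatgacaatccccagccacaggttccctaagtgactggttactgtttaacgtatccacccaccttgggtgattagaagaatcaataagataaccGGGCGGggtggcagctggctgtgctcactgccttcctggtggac

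Beside the 9, 32 of the 38 other nuclear receptors considered were listed, and 26 of these averaged 1 CPM or more. The median level was 10.4 CPM per kilobase over the 9 and 3.97 over the other 32, and 8 of the 9 were above the latter, all but Ppard. Over the 26 others at 1 CPM or more, a set chosen after seeing the data, the median was 6.16 CPM per kilobase, and 6 of the 9 were above it, without Rora, Thrb and Ppard. Of the 10 with the highest level per kilobase among these 41, 4 were among the 9. Rxra, the retinoid X receptor alpha with which Nr1i2, Nr1i3, Nr1h3, Thrb and Ppard pair, came next after Hnf4a at 79.3 ± 8.63 CPM per kilobase. The other partner genes were lower, with Rxrb at 7.83 ± 0.697 and Rxrg at 3.87 ± 0.452 CPM per kilobase.

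The nearest relatives of the 9 were in part higher and in part lower. Nr1h2, which encodes the liver X receptor beta, was at 23.2 ± 1.03 CPM per kilobase, below Nr1h3 in every liver. Thra, the other thyroid hormone receptor gene, was at 6.06 ± 1.16 CPM per kilobase. Its mean was above that of Thrb at 4.92 CPM per kilobase, with overlapping ranges. Without division by length the order was the reverse, with Thra at 14.9 CPM and Thrb at 30.5 CPM. The length of all exons was tried only for the 9 receptors. Ppara, the fatty acid sensor of fasting, was at 29.5 ± 2.90 and Pparg, the lipid storage receptor, at 14.4 ± 1.31 CPM per kilobase, both above Ppard at 2.06. Of the relatives of Esrra, Esrrg was at 1.403 ± 0.144 and Esrrb at 0.282 ± 0.108 CPM per kilobase. Hnf4g, the relative of Hnf4a, was at 0.0548 ± 0.0347 CPM per kilobase.

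Other receptors of bile acid and clock control were also measured. Nr1h4, the bile acid receptor FXR, was at 117, 125, 119, 131 and 125 CPM. Nr0b2, the repressor SHP that lacks a DNA-binding domain and acts on Nr5a2 and Hnf4a, was at 31.3, 30.5, 18.8, 48.0 and 30.1 CPM. Its highest and lowest livers, replicates 4 and 3, were also those of Nr1i3, Nr5a2 and Thrb, whereas Hnf4a was highest in replicate 1. A link between these genes was not tested. Nr1d1, the clock repressor REV-ERB alpha that competes with Rora for its sites, was at 137, 133, 101, 142 and 143 CPM, with replicate 3 below the other 4 livers. Nr4a1, an immediate early gene, spanned 1.26 to 17.03 CPM.

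Coactivators and corepressors, through which the receptors act on transcription, were lower than the most abundant receptors. Of 19 considered, 18 were listed, all at 1 CPM or more, with a median of 2.98 and a range of 1.49 to 10.9 CPM per kilobase. The corepressor Ncor1 and the histone deacetylase Hdac3 that it binds were at 10.5 ± 0.902 and 10.9 ± 0.751 CPM per kilobase. The coactivator Ncoa2 was at 5.32 ± 0.615 and the corepressor Nrip1 at 2.01 ± 0.322 CPM per kilobase. Ppargc1a, which encodes PGC-1alpha, the partner of Esrra, was at 11.6, 18.8, 21.9, 19.0 and 13.4 CPM, and its relative Ppargc1b at 8.05, 4.57, 7.75, 3.97 and 2.95 CPM. Replicates 1 and 5 were low for Ppargc1a, whereas replicates 1 and 3 were high for Ppargc1b.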

How the data were processed

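Of the 10 RNA-seq libraries of the series, the 5 AAV8-Control livers were used, grouped by title; the other 5 libraries, the comparison with them and some listed genes are not reported here. The authors aligned single 50-base reads with STAR 2.0.4b to Ensembl release 76 (GRCm38.p2 per the labels) and counted unique reads on genes with featureCounts 1.4.5. The authors deposited CPM values in 15236 lines for 15126 genes. How counts became CPM, and whether strand was used, is not given in the sources used here. Dividing by the CPM of 1 read gave whole reads (within 0.05) for 100% of the values.

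Levels were averaged in CPM as deposited, with the SD over 5 libraries, and divided by the longest annotated transcript to compare genes. With a single group no test between groups was made, and Dixon's test was used for single libraries that stand apart. TMM factors (edgeR 4.0.16) and DESeq2 1.42.0 size factors in R 4.3.3, the length of all exons, and leaving out each library were the alternatives. The tests between groups that had been planned were not used. The members and lists were chosen with earlier results of these data known. The 9 receptors were named by rule, and the other receptors and coregulators after their values were seen. Positions and lengths are from GENCODE M21 (GRCm38), and promoters from RefSeq (GRCm38.p6), which matched all 9 receptors. Duplicate libraries were not found (lowest chi-square per degree of freedom 15.9 over 10 pairs).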

Additional observations from a re-analysis of the deposited data

Results flagged for a closer look

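In CPM as deposited, a single liver lay far from the other 4 by Dixon's test at the 95% level in 4 of 29 genes whose levels are given. Chance flags about 1 in 20 groups, but that rate is no fair comparison here, since 20 of the 29 genes were chosen after their values were seen and 3 of the 4 share a library. Hnf4a was at 735 CPM in AAV8-Control replicate 1 and at 573 to 608 CPM in the others. Rxra, the dimer partner gene, was at 463 CPM in the same liver and at 361 to 382 CPM in the others, and Rxrb at 23.7 CPM against 18.8 to 20.2 CPM. Nr1d1 was at 101 CPM in AAV8-Control replicate 3 and at 133 to 143 CPM in the others. In an alternative chosen after seeing the data, the gaps were recomputed after TMM scaling, and none of these 4 stayed past the limit of 0.71 of the range: the ratios were 0.633 for Hnf4a, 0.695 for Rxra, 0.528 for Rxrb and 0.635 for Nr1d1. With that scaling 2 other receptors were just past it, Nr1i3 at 0.714 for its high replicate 4 and Rora at 0.714 for its low replicate 5.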

How the results depend on the processing

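With TMM or DESeq2 size factors the mean CPM of each of the 9 receptors moved by at most 0.255%, and when any single liver was omitted by at most 9.90%, reached by Nr1i3. The order of the 9 receptors per kilobase kept all 9 ranks under both scalings and without any single liver, and 7 of 9 with the length of all exons, where Nr5a2 and Esrra changed places. In an alternative added after seeing the data, the coefficients of variation of Hnf4a, Nr1i2, Nr1i3, Rora and Ppard moved by over 1.5 times when 1 library was omitted (replicate 1, 5, 4, 5 and 4). No paired analysis was possible because a single group was used and no result comes from a test between groups. The alternatives for pseudocount, filter and test tool bear on tests between groups and were not run. Depth limits Ppard most, at 157 to 283 reads.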
